A study of Mus musculus with 8 samples.

Results

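The 9 genes described here encode members of the tumour necrosis factor (TNF) superfamily, 5 ligands (Tnfsf14, Tnfsf11, Tnfsf8, Fasl and Cd40lg) and 4 receptors (Tnfrsf9, Tnfrsf4, Tnfrsf18 and Cd27). They are named genes, with no threshold on a measured value in the rule, but they were chosen with earlier results of these data known. Shares of all tested genes set beside their counts are given for scale and test nothing about the family. Each was located through the probe sets that the platform annotation assigns to that symbol alone, and the probe set with the highest mean over all 8 arrays stood for the gene. All 9 were found, on 14 probe sets, among 18193 genes on the array, and all 9 were among the 13983 genes whose signal exceeded a working floor (signal 37.3, log2 5.22, the 40th percentile of all values) on at least 2 arrays. Tnfsf14 passed through its control and stimulated arrays.

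The arrays measured messenger RNA in primary CD4+ T cells from BALB/c mice, in 4 groups of 2. Control cells received neither antibodies nor inhibitor, only the solvent DMSO. Stimulated cells were first exposed for 1 h to antibodies that engage CD3, bound to the plate, and CD28, in solution, and then to DMSO. The other 2 groups were unstimulated and stimulated cells that received dorsomorphin at 4 µM in place of DMSO. Solvent or inhibitor stayed for 6 h in every group. Dorsomorphin is a small molecule that blocks type I receptors for bone morphogenetic proteins and also the energy-sensing kinase AMPK. Nothing in the labels ties the replicates of a group to separate mice or cultures. The p-values therefore reflect array-to-array spread that may be purely technical, and 2 arrays per group limit the precision of every value.

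As background, TNF superfamily ligands are mostly trimeric proteins of the cell surface, and their receptors signal through TRAF adaptor proteins to NF-kappaB or, for death receptors such as Fas, through FADD to caspase-8. In T cells some members serve as help for other cells (CD40 ligand, which activates B cells and dendritic cells) and some as costimulatory receptors that appear after antigen recognition (OX40, encoded by Tnfrsf4, and 4-1BB, encoded by Tnfrsf9). GITR, encoded by Tnfrsf18, is abundant on regulatory T cells, and CD27 is already present on naive T cells. Fas ligand, encoded by Fasl, kills cells that carry Fas.

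Promoter windows from RefSeq (build GRCm38.p6, 250 bases before to 50 after the annotated start) were found for 8 of the 9 genes, 9 windows in all, and not for Cd40lg. The 4 printed here were picked after the search because each holds a match, and they belong to 3 genes that rose with stimulation and to Cd27, which did not pass there. The window of Tnfrsf18, which did not pass there either, and the first Tnfrsf9 window also held a match and are not printed. Tnfsf11, Tnfsf8 and Tnfrsf4, which also rose, had no match to the NF-kappaB, AP-1 or NFAT motif in their windows. Capitals mark matches on either strand to the NF-kappaB motif (by its name), the AP-1 motif TGANTCA and the NFAT core GGAAAA.
Tnfsf14, chr17:57194132-57194431, minus strand: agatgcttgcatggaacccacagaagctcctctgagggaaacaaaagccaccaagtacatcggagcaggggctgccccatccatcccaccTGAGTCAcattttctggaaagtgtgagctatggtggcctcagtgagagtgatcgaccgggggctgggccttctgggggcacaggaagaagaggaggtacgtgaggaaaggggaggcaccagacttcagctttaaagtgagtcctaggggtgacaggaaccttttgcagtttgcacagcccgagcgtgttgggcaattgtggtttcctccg
Fasl, chr1:161788446-161788745, minus strand: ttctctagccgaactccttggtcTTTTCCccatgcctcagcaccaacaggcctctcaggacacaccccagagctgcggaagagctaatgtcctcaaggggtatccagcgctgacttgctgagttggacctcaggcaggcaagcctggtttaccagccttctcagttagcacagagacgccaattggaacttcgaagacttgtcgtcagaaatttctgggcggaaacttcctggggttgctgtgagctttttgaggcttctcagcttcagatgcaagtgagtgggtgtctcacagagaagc
Tnfrsf9, second annotated start, chr4:150927749-150928048, plus strand: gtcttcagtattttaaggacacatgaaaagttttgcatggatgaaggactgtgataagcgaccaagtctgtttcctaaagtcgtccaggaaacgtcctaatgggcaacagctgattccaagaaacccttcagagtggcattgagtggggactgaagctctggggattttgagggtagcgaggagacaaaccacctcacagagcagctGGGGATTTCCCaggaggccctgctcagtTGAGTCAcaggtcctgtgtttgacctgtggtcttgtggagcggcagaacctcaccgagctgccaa
Cd27, chr6:125236978-125237277, minus strand: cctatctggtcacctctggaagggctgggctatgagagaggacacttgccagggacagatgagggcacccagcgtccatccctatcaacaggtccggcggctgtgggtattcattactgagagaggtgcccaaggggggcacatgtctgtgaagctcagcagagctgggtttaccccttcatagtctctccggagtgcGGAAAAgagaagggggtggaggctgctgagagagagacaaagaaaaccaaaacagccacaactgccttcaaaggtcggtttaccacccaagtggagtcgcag

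In these windows the Tnfsf14 sequence held 1 AP-1 match, beginning 160 bases before the start site (offset -160). The second Tnfrsf9 window held 1 AP-1 match at offset -15 and, at -43 and -42, 2 NF-kappaB matches that overlap in the same stretch of letters. Fasl and Cd27 each held 1 NFAT match, at -227 and -52. The windows not printed that held an NFAT match were that of Tnfrsf18, at -196, and the first of Tnfrsf9, at -138. Over all 9 windows, 1 had an NF-kappaB match, 2 an AP-1 match and 4 an NFAT match. Of all 32851 promoter windows of this length, 8.46%, 7.81% and 23.4% held such a match. The Egr motif GCGTGGGCG, sought on either strand, matched 0 of the 9 windows and 0.612% of all. TATAAA, also sought on either strand, matched 1 and 13.6% of all. That match was in the Tnfsf11 window at -32, where the window itself reads TTTATA, the reverse complement. A match is a match of letters and not a measured binding site.

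Median signals per array ran from 45.4 to 74.5. The deposited values had been brought to a common trimmed mean of 500. The 3' minus 5' log2 signal of mouse actin control probe sets, which falls with better preserved messages, was 0.33 on both stimulated arrays and 0.47 to 0.80 on the others, and its part in the results was not tested. For the Gapdh control it was -0.49 and -0.32 on the stimulated arrays, within the -0.59 to -0.18 of the others. The same difference for dap, a bacterial RNA added as a control, was 1.11 to 1.37 on the 4 arrays of replicate 1 and 2.44 to 2.79 on those of replicate 2. Each group holds 1 array of each number. All 7 CD4+ T cell markers on the array (Cd3e, Cd3d, Cd3g, Cd4, Cd5, Cd28 and Thy1) lay above the floor on every array. Of the 7 B cell markers, Cd79a reached at most 51.9 and Cd79b at most 239.5, and the other 5 had their highest values between these.

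**Figure D1:**
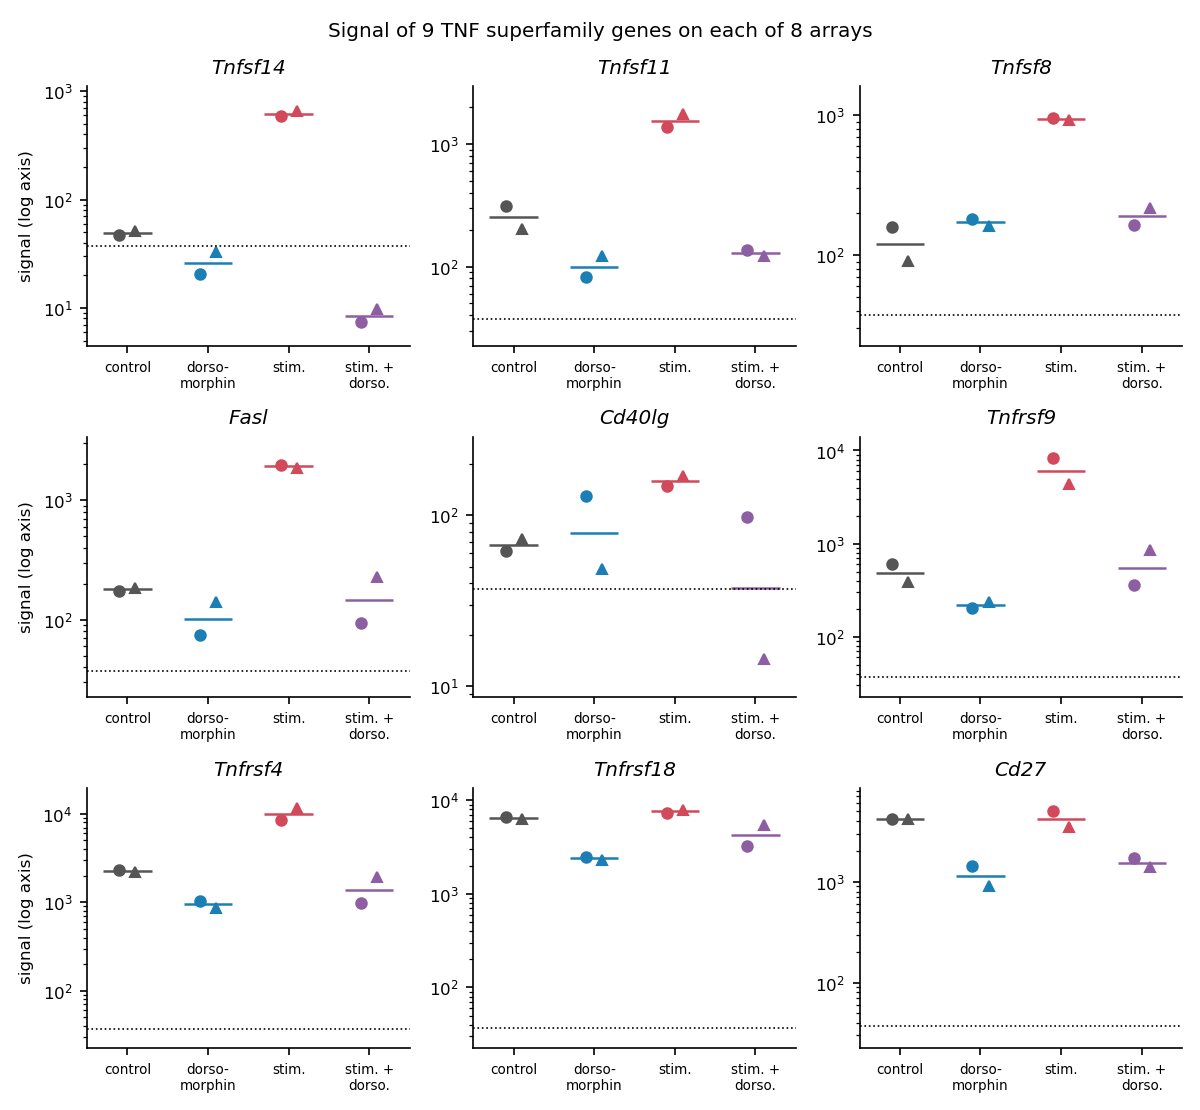
Signal of each of the 9 genes on every array (log axis, 1 panel per gene). Circles are replicate 1, triangles replicate 2, horizontal bars the mean of the log2 signals of a group, and the dotted line the working floor of 37.3. The 2 stimulated arrays lie above the other 6 for Tnfsf14, Tnfsf11, Tnfsf8, Fasl, Cd40lg, Tnfrsf9, Tnfrsf4 and Tnfrsf18, and the arrays of Cd27 split by dorsomorphin.

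The first comparison asked how the family responds to stimulation without the inhibitor. Of the 5 ligands 4 rose and Cd40lg did not pass, and of the 4 receptors Tnfrsf9 and Tnfrsf4 rose while Tnfrsf18 and Cd27 did not pass. By limma 6 of 9 members rose and 0 fell, beside 8.98% and 14.4% of all tested genes (23.4% in either direction). The same 6 had an unadjusted p under 0.05, beside 38.4% of all tested genes. Both stimulated arrays lay above both control arrays for 8 of 9 members and below them for 0, beside 25.1% and 42.0% of all tested genes. The median log2 fold of the members was 2.62, and that of all tested genes -0.27. Of the genes called, 38.4% rose, and this share was 49.0% after median centring, 46.0% after quantile normalization and 49.9% after cyclic loess, which move the median of all genes to 0.08, -0.05 and -0.01.

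Tnfsf14 encodes LIGHT, a ligand that engages the receptors HVEM and LTBR. Its signal was 46.7 and 51.3 on the control arrays and 586 and 658 on the stimulated arrays. By limma it rose 12.7-fold, or 3.66 ± 0.31 on the log2 scale (mean ± SE, 2 arrays in each group, adjusted p = 0.00784). All errors of log2 folds are such SEs. The controls lay just above the floor, and the stimulated arrays were far apart from them and close to each other.

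Fasl was the next largest rise among the ligands. Its signal was 174 and 186 on the control arrays and 1998 and 1853 on the stimulated arrays, a 10.7-fold rise (3.42 ± 0.50, adjusted p = 0.0122). Both pairs of arrays were tight, and there was no overlap.

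Tnfsf8, which encodes the ligand of CD30, read 160 and 91.4 in control cells and 949.6 and 918 after stimulation. It rose 7.74-fold (2.95 ± 0.33, adjusted p = 0.00864). The spread lay in the control arrays, while the stimulated arrays nearly coincided. Tnfsf11 encodes RANK ligand, best known for driving osteoclast formation and also used by T cells toward dendritic cells. It read 312 and 203 in control and 1369 and 1744 in stimulated cells, a 6.14-fold rise (2.62 ± 0.33, adjusted p = 0.009996). The lowest stimulated array was still more than 4 times the highest control array.

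Cd40lg was dim. Its signal was 62.1 and 72.7 on the control arrays and 148 and 169 on the stimulated arrays. Its log2 fold of 1.23 ± 0.93 did not pass (adjusted p = 0.387, 95% interval -1.05 to 3.52), although the groups did not overlap. The width of the interval comes with the spread of its other groups, since all 8 arrays share 1 estimate of the spread.

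Among receptors, Tnfrsf9 read 605 and 391 on the control arrays and 8210 and 4332 on the stimulated arrays. It rose 12.3-fold (3.62 ± 0.53, adjusted p = 0.0122). The stimulated arrays stood well apart from each other, and both stood above every other array. Tnfrsf4 read 2314 and 2172 in control and 8598 and 11520 in stimulated cells, a 4.44-fold rise (2.15 ± 0.38, adjusted p = 0.0165).

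The remaining receptors had high signals before stimulation. Tnfrsf18 read 6632 and 6350 in control and 7278 and 7946 in stimulated cells (0.23 ± 0.30, adjusted p = 0.617, 95% interval -0.50 to 0.96). The groups did not overlap, but the difference was smaller than its error. Cd27 read 4190 and 4232 in control and 4993 and 3487 in stimulated cells (-0.01 ± 0.33, adjusted p = 0.982, interval -0.82 to 0.79), and its groups overlapped. The sign of the value of Tnfrsf18 turned with quantile normalization (-0.03), and that of Cd27 with median centring (0.34) and cyclic loess (0.07).

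The calls of this comparison rest on the control arrays. Without control replicate 1 or without control replicate 2, all calls of the members were lost, as were those of all other tested genes. The log2 folds of the 6 members called in the main fit then ran from 2.20 to 3.93 and from 2.10 to 3.73. Without stimulated replicate 2, 4 of 9 passed, and Fasl (adjusted p = 0.0570) and Tnfrsf4 (0.0795) did not.

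**Figure D2:**
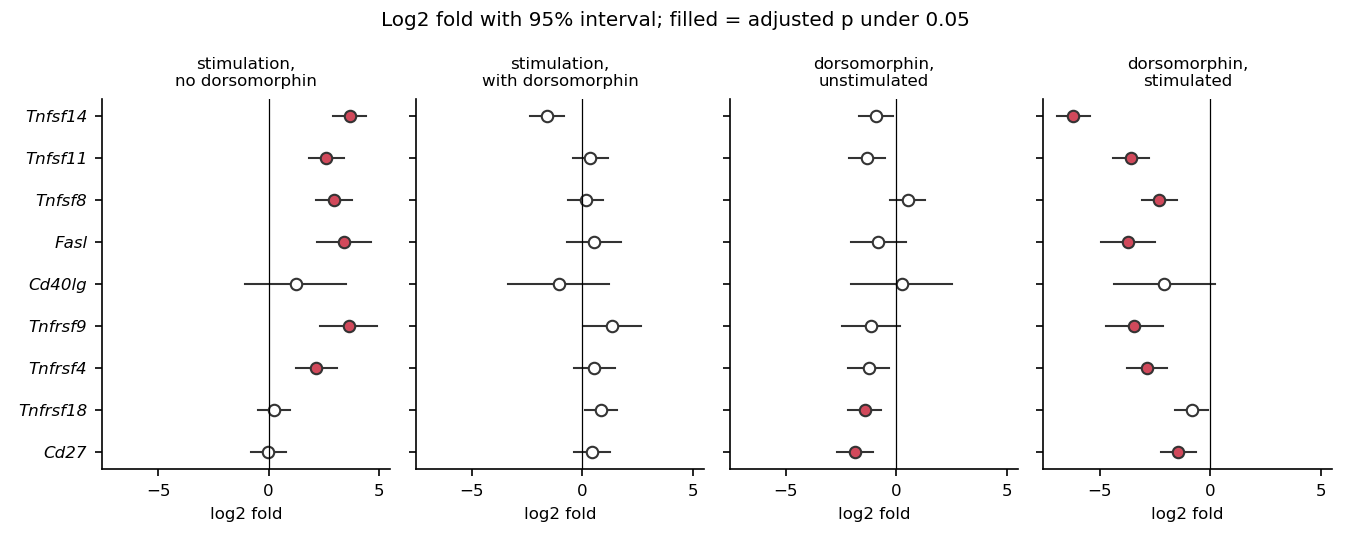
Log2 fold of the 9 genes in 4 comparisons (points), with 95% intervals of the limma fit (lines). Filled points passed an adjusted p of 0.05, and 6 do so for stimulation without dorsomorphin, 0 for stimulation with dorsomorphin, 2 for dorsomorphin in unstimulated cells and 7 for dorsomorphin in stimulated cells.

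In stimulated cells the question was how dorsomorphin shifts the family. All 9 members had lower signals on both arrays with the inhibitor than on either array without it, beside 29.1% of all tested genes, and 0 of 9 lay higher in this way, beside 31.4%. By limma 7 of 9 fell and 0 rose, beside 12.4% and 9.71% of all tested genes (22.1% in either direction), and 8 of 9 had an unadjusted p under 0.05, beside 36.4%. Those 7 were the ligands Tnfsf14, Tnfsf11, Tnfsf8 and Fasl and the receptors Tnfrsf9, Tnfrsf4 and Cd27. The median log2 fold was -2.86, and that of all tested genes 0.07. Of all genes called, 43.9% rose, against 31.2% after median centring, 40.5% after quantile normalization and 34.6% after cyclic loess. This comparison and the first share the stimulated arrays, so the values of both are not separate evidence. In the same comparison 3 of 6 regulatory T cell markers fell (Il2ra, Capg and Ikzf2), with a summed signal of 19259 to 21507 without and 8627 to 9503 with dorsomorphin. Of 7 CD4+ T cell markers 2 fell (Cd3g and Cd5) and 1 rose (Cd28), with a summed signal of 47800 to 48682 and 32893 to 32966. The part of these markers' shifts in the members' values was not tested.

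Tnfsf14 read 7.38 and 9.74 on the arrays of stimulated cells with dorsomorphin, both under the floor, against 586 and 658 without it. It was thus at least 16.7-fold lower, the stimulated mean set against the floor, and the fitted value was -6.20 ± 0.31 (limma adjusted p = 0.00414). These were the lowest of its 8 values, below the 20.4 and 33.0 of unstimulated cells with dorsomorphin. That low end lies under the floor, where values have no reliable order.

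Fasl read 93.3 and 229 with the inhibitor and fell by 3.72 ± 0.50 on the log2 scale (adjusted p = 0.00838). Tnfsf11 read 135 and 121 and fell by 3.59 ± 0.33 (adjusted p = 0.00576). Tnfsf8 read 165 and 217 and fell by 2.30 ± 0.33 (adjusted p = 0.00936). The 2 arrays of Tnfsf11 nearly coincided, while those of Fasl were more than 2 times apart. Cd40lg read 98.0 and 14.4, the second under the floor, and its log2 fold of -2.07 ± 0.93 did not pass (adjusted p = 0.169).

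Of the receptors, Tnfrsf9 read 359 and 852 and fell by 3.43 ± 0.53 (adjusted p = 0.0112). Tnfrsf4 read 972 and 1924 and fell by 2.86 ± 0.38 (adjusted p = 0.00817). Both were higher on replicate 2, by 1.24 and 0.99 log2 units. Cd27 read 1713 and 1387 and fell by 1.44 ± 0.33 (adjusted p = 0.0303). Tnfrsf18 read 3261 and 5480, and its value of -0.85 ± 0.30 did not pass (adjusted p = 0.0948).

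The call of Cd27 did not hold without any one of control replicate 1, control replicate 2, either stimulated array or either array of stimulated cells with dorsomorphin (adjusted p 0.0628 to 0.110), nor without the filter (0.0556). That of Tnfsf8 was just lost without stimulated dorsomorphin replicate 1 (0.0505), while without that array Cd40lg passed (-3.46, adjusted p = 0.0447) and without replicate 2 of the same group Tnfrsf18 passed (-1.22, 0.0484). Tnfrsf18 also passed after cyclic loess (0.0491), with the filter at the 60th percentile (0.0440) and with a trended, robust variance (0.0244). With only the 4 arrays of this comparison in the fit, 0 of 9 members and 0 of 13983 genes passed. At an unadjusted p under 0.05 in that limma fit there were 7 of 9 members, beside 4040 of 13983 genes.

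The third comparison asked what dorsomorphin does without stimulation. Here 2 of 9 members fell, the receptors Cd27 and Tnfrsf18, and 0 rose, beside 11.1% and 1.92% of all tested genes (13.1% in either direction). At an unadjusted p under 0.05 there were 5 of 9, beside 31.4%. None of the 5 ligands passed, with 2 of the 5, Tnfsf14 and Tnfsf11, at an unadjusted p under 0.05. Under alternatives Tnfsf11 passed with the mean of its probe sets (adjusted p = 0.0394), the 60th percentile filter (0.0186), raised values (0.0217) and a trended, robust variance (0.0195). Tnfsf14 passed with the 60th percentile filter (0.0496). The receptor Tnfrsf4 passed under the last 3 of the settings named for Tnfsf11 (0.0361, 0.0438 and 0.0174). Arrays did not overlap in the downward direction for 7 of 9 members and in the upward direction for 1, beside 42.3% and 23.2% of all tested genes. The median log2 fold was -1.15, and that of all tested genes -0.24.

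Cd27 read 4190 and 4232 on the control arrays and 1446 and 902 with dorsomorphin, and it fell by 1.88 ± 0.33 (adjusted p = 0.0236). Tnfrsf18 read 6632 and 6350 against 2494 and 2291 and fell by 1.44 ± 0.30 (adjusted p = 0.0338). The control arrays of both genes lay close together and far from the treated arrays. The other receptors were lower without passing: Tnfrsf4 at 1043 and 861 (-1.24 ± 0.38, adjusted p = 0.0837) and Tnfrsf9 at 202 and 238 (-1.15 ± 0.53, adjusted p = 0.202).

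Among ligands, Tnfsf11 came nearest, with 82.4 and 121 against control values of 312 and 203 (-1.34 ± 0.33, adjusted p = 0.0511). Fasl, at 74.1 and 140, had a log2 fold of -0.82 ± 0.50 (adjusted p = 0.324). Tnfsf14 had both arrays under the floor, a difference of at least 1.31-fold that did not pass (adjusted p = 0.106). Tnfsf8 was the only ligand with arrays above both controls, at 180 and 163 (0.50 ± 0.33, adjusted p = 0.351). Cd40lg, at 130 and 48.5, spanned its controls.

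Markers of T cells moved in the same comparison. Of 7 CD4+ T cell markers tested 5 fell, beside 11.1% of all tested genes. The summed signal of the list was 22497 to 30836 with dorsomorphin against 68555 to 69056 in control cells. Of 6 regulatory T cell markers 2 fell, Capg and Nrp1, beside the same 11.1%. The list's summed signal was 7556 to 9132 against 10507 to 12375. Foxp3, the lineage factor of regulatory T cells, read 565 and 451 in control cells and 165 and 144 with dorsomorphin (-1.71, adjusted p = 0.0523). In bulk RNA, fewer cells of a type and less RNA per cell cannot be told apart, and the part of these shifts in the values of Cd27 and Tnfrsf18 was not tested. With stimulation alone 2 of the 6 regulatory T cell markers rose, Il2ra (4.86) and Ikzf2 (0.90), Nrp1 fell (-1.54) and Foxp3 did not pass (0.22, adjusted p = 0.747). Of all tested genes 8.98% rose and 14.4% fell with stimulation. The list's summed signal was 19259 to 21507 on the stimulated arrays. Il2ra is also a gene of activated T cells in general.

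Markers of other cells were followed on the same arrays. Of 8 myeloid and dendritic cell markers 2 fell with dorsomorphin alone, 3 fell with stimulation and 0 passed for dorsomorphin in stimulated cells. Of all tested genes 11.1% and 14.4% fell in the first 2 comparisons, and 22.1% passed in the last. Their summed signal was 2779 to 3837 in control cells, 1289 to 1384 with dorsomorphin, 751 to 1346 after stimulation and 984 to 1382 with both. The 7 CD8 T and NK cell markers on the array summed to 2133 to 2561, 660 to 992, 1254 to 1615 and 838 to 1106 in the same order, and the 7 B cell markers to 572 to 704, 298 to 304, 327 to 480 and 518 to 550. Cytotoxic cells can also make Fas ligand. Of the CD8 T and NK markers Klrd1 fell with stimulation (-4.41), and Klrd1 and Gzma fell with dorsomorphin alone. Nkg7 read 126 and 127 in control cells, 239 and 306 after stimulation and 24.3 and 44.5 with both treatments, and it fell with dorsomorphin in stimulated cells (-3.04). There Gzma also fell (-0.93) and Klrd1 rose (2.42). The part of these cells in the values of the 9 genes was not tested.

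Calls with dorsomorphin alone were few and moved with the arrays in the fit. Without either control array the calls of Cd27 and Tnfrsf18 were lost, as were those of all other tested genes. Both were also lost without dorsomorphin replicate 2, where fewer of all tested genes were called than in the main fit. Each of these fits leaves 1 array in a group. The log2 folds of Cd27 were then -1.89 and -1.87 without control replicates 1 and 2, and -1.54 without dorsomorphin replicate 2. Those of Tnfrsf18 were -1.41, -1.47 and -1.38 in the same order. Tnfrsf18 alone was lost without dorsomorphin replicate 1 (adjusted p = 0.0813) or without either stimulated array (0.0522), after median centring (-1.22, 0.142) and without the filter (0.0637). Cd27 was lost with only the arrays compared (0.0564).

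The fourth comparison set stimulated against unstimulated cells when both had dorsomorphin. By limma 0 of 9 members passed, as did 0.0% of all tested genes, with 3 of 9 members (Tnfsf14, Tnfrsf9 and Tnfrsf18) and 3.85% of all genes at an unadjusted p under 0.05. Arrays did not overlap for 3 members that lay higher and 1 that lay lower, beside 17.3% and 10.2% of all tested genes. Tnfrsf9 had the highest value among the members, 1.34 ± 0.53 (95% interval 0.04 to 2.63), beside an interval of 2.32 to 4.91 for its rise without the inhibitor. Tnfrsf18 had 0.82 ± 0.30, Tnfrsf4 0.53 ± 0.38, Fasl 0.52 ± 0.50, Cd27 0.43 ± 0.33, Tnfsf11 0.36 ± 0.33 and Tnfsf8 0.14 ± 0.33. Tnfsf14 had -1.61, between groups that both lay under the floor, and Cd40lg had -1.08 ± 0.93. The values of Tnfrsf9, Tnfrsf4, Fasl and Tnfrsf18 carry the higher replicate 2 noted above: within replicate number 1 they were 0.83, -0.10, 0.33 and 0.39, and within number 2 they were 1.84, 1.16, 0.71 and 1.26.

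Whether dorsomorphin changed the response to stimulation was tested by the interaction, the response with the inhibitor minus that without it. By limma 1 of 9 members passed, Tnfsf14 at -5.28 ± 0.44 (adjusted p = 0.0492), beside 0.0501% of all tested genes in that direction, 0.0358% in the other and 0.0858% in either. At an unadjusted p under 0.05 there were 6 of 9, beside 26.4%. Both dorsomorphin groups of Tnfsf14 lay under the floor, so the size of this value is not fixed. With values raised to the floor it was -3.66 and still passed (adjusted p = 0.00545), but it was lost in 12 of 18 alternatives. Among them were median centring (0.0779), no filter (0.0878) and the second-brightest probe set (0.0919). In these 0, 0 and 1 of all tested genes passed. It was also lost in the fits without either control array, with values of -5.21 and -5.35. Tnfsf8 (-2.81 ± 0.46, adjusted p = 0.0618), Tnfsf11 (-2.26 ± 0.46, 0.0727) and Fasl (-2.90 ± 0.71, 0.0873) came next. Tnfrsf9 (-2.28 ± 0.75, 0.129), Tnfrsf4 (-1.62 ± 0.53, 0.130) and Cd40lg (-2.31 ± 1.31, 0.316) were also negative. Tnfrsf18 (0.59 ± 0.42, 0.413) and Cd27 (0.45 ± 0.46, 0.585) were positive, with intervals that reach from -0.43 to 1.62 and from -0.69 to 1.58. The sign of the Cd27 value turned with median centring (-0.03).

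Against resting control cells, stimulated cells with dorsomorphin had 1 of 9 members lower, Tnfsf14, and 0 higher by limma, beside 6.31% and 0.915% of all tested genes (7.22% in either direction). At an unadjusted p under 0.05 there were 3 of 9, beside 26.4%. Arrays did not overlap for 5 members that lay lower and 1 that lay higher, beside 37.9% and 23.2% of all tested genes. For Tnfsf14 the dim side lay under the floor, so it was at least 1.31-fold lower (fitted value -2.53, adjusted p = 0.0199). That call was lost when values were raised to the floor (-0.39, adjusted p = 0.199) and with the mean of its probe sets (adjusted p = 0.121). It was also lost with its second-brightest probe set (log2 difference 0.05) and with only the arrays compared (adjusted p = 0.0540). Without any one of the control arrays or the arrays of stimulated cells with dorsomorphin it was lost too, at log2 folds of -2.73 to -2.33. Cd27 had -1.45 ± 0.33 (adjusted p = 0.0556), Tnfsf11 -0.97 ± 0.33 (0.131), Tnfrsf4 -0.71 ± 0.38 (0.291) and Tnfrsf18 -0.62 ± 0.30 (0.250). Fasl (-0.30 ± 0.50), Tnfrsf9 (0.19 ± 0.53) and Cd40lg (-0.84 ± 0.93) had arrays that overlapped those of control cells. Tnfsf8 had 0.65 ± 0.33 (0.271).

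In the order of group means, stimulated cells stood highest for 8 of the members, and for Cd27 the control mean was higher by 0.01 log2 units, which the arrays do not separate. Below the stimulated group, control cells came next for Tnfsf14, Tnfsf11, Fasl, Tnfrsf4 and Tnfrsf18, and dorsomorphin alone was lowest for Tnfsf11, Fasl, Tnfrsf9, Tnfrsf4, Tnfrsf18 and Cd27. The arrays of the 2 dorsomorphin groups overlapped for Tnfsf8, Fasl, Cd40lg, Tnfrsf4 and Cd27 and did not for Tnfsf14, Tnfsf11, Tnfrsf9 and Tnfrsf18.

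Of the 9 genes 4 had more than 1 probe set. For Tnfsf14 the second-brightest probe set, under the floor on 6 of 8 arrays, had log2 differences of 4.92 with stimulation and -4.87 with dorsomorphin in stimulated cells. With so few arrays above the floor, the sizes of these differences are not fixed. The second-brightest probe set of Fasl had 2.69 and -2.47, and that of Tnfsf11, under the floor on 4 of 8 arrays, had 1.71 and -3.06. The second Tnfrsf9 probe set had 5.41 and -3.50, so both of its brighter probe sets moved the same way. With dorsomorphin alone they parted, at -1.15 and 0.37. The third Tnfrsf9 probe set was under the floor on 4 of 8 arrays and had 0.52 and 0.86, with no fall. With the second-brightest probe set Tnfsf11 was no longer called for stimulation (adjusted p = 0.110), and with the mean of the probe sets Tnfrsf9 was no longer called for dorsomorphin in stimulated cells (-2.02, adjusted p = 0.0627).

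**Figure D3:**
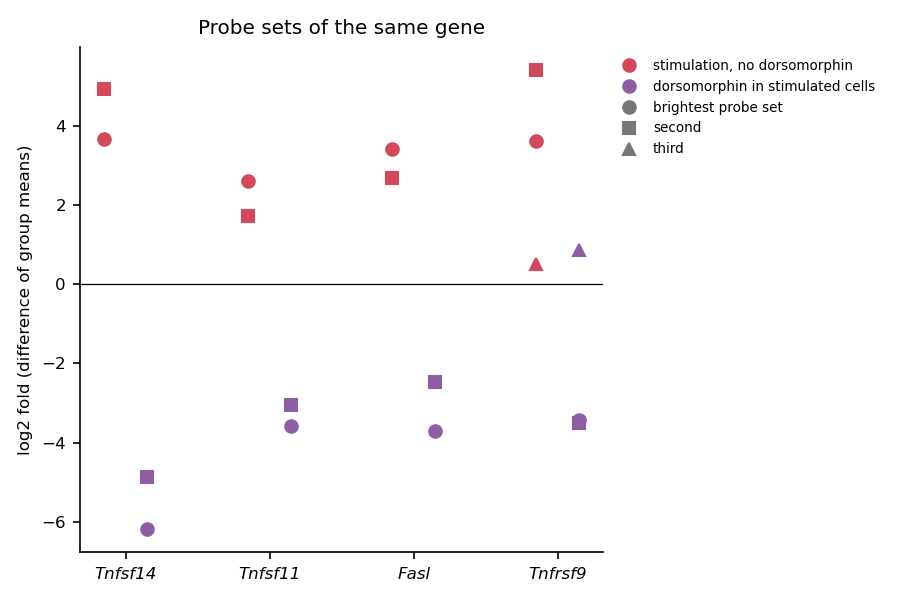
Log2 difference of group means for every probe set of the 4 genes with more than 1, for stimulation without dorsomorphin (red) and dorsomorphin in stimulated cells (purple). Circles, squares and triangles are the brightest, the second and the third probe set. The second Tnfsf14 probe set was under the floor on 6 of 8 arrays, so the sizes of its differences are not fixed. All are above 0 for stimulation, and all but the third Tnfrsf9 probe set are below 0 for dorsomorphin.

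Of the partners of the 9 genes, Cd70 and Cd40 passed a test. CD70 is the ligand of CD27, and Cd70 is the gene next to Tnfsf14 on chromosome 17 in the RefSeq annotation of GRCm38.p6. Cd70 read 20.4 and 33.6 in control cells, 137 and 102 after stimulation and 7.61 and 2.67 with dorsomorphin added. It rose at least 3.17-fold (adjusted p = 0.0447) and was at least 3.17-fold lower with the inhibitor (adjusted p = 0.00730), both against the floor. Cd70 lay above the floor only on its stimulated arrays and met the filter through them alone, which favours both calls. Tnfsf9, the ligand of 4-1BB, lies 1 protein-coding gene further from Tnfsf14 and did not pass (0.34 and -0.26). Cd40, the receptor of CD40 ligand and more typical of antigen-presenting cells, had a log2 fold of 1.699 with stimulation that did not pass (adjusted p = 0.0655) and fell by 2.57 with dorsomorphin in stimulated cells (adjusted p = 0.0226).

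The other partners did not pass for stimulation or for dorsomorphin in either state. Tnfrsf14, which encodes the LIGHT receptor HVEM, read 1383 and 1944 in control and 2111 and 2031 in stimulated cells. Fas read 540.1 and 545 in control and 561 and 735 in stimulated cells, and 434 and 3231 in stimulated cells with dorsomorphin, 2 arrays that stand 2.89 log2 units apart. Tnfsf4, the ligand of OX40, read 143 and 720.3 on those same arrays. Ltbr, Tnfrsf8 and Tnfrsf11a were dim, with signals of at most 135, 74.3 and 93.2, Tnfrsf11b lay below the filter, and Tnfsf18 was not analysed here.

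Tnfrsf4 and Tnfrsf18 are also direct neighbours, on chromosome 4, with 0 protein-coding genes between them. Stimulation raised Tnfrsf4 4.44-fold, and the 1.17-fold difference of Tnfrsf18 did not pass. Whether the neighbours differed from each other was not tested.

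The rest of the family was taken from fixed lists, also chosen with earlier results of these data known. Of 13 other ligands 9 were tested. With stimulation 3 rose and 0 fell, beside 8.98% and 14.4% of all tested genes. The 3 were Tnf (4.89 ± 0.60, adjusted p = 0.00950), Lta (3.87 ± 0.71, 0.0180) and Cd70, which met the filter only through its stimulated arrays. With dorsomorphin in stimulated cells 4 of the 9 fell and 0 rose, beside 12.4% and 9.71% of all tested genes. The 4 were Cd70, Tnf (-3.90 ± 0.60, 0.0111), Lta (-3.85 ± 0.71, 0.0170) and Tnfsf10 (-1.66 ± 0.37, 0.0294). Tnf encodes TNF itself, Lta lymphotoxin alpha and Tnfsf10 the death ligand TRAIL. Tnfsf10 also fell with dorsomorphin alone (-2.33 ± 0.37, 0.0203), the single call of this list there. That is 11.1% of the 9, and 11.1% of all tested genes fell in that comparison. The list's median log2 fold was 0.34 with stimulation and -0.26 with dorsomorphin in stimulated cells.

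Of 24 other receptors 21 were tested, and 1 rose with stimulation, Tnfrsf19 (2.23 ± 0.38, adjusted p = 0.0160), while 1 fell, Tnfrsf25 (-1.45 ± 0.32, 0.0281), which encodes the death receptor DR3. These 2 of 21 are 9.52%, beside 23.4% of all tested genes. With dorsomorphin in stimulated cells 3 fell (14.3%, beside 12.4% of all tested genes) and 0 rose. The 3 were Cd40, Tnfrsf19 (-2.72 ± 0.38, 0.00924) and Ngfr, which was at least 1.47-fold lower by group means. Ngfr read 82.4 and 36.3 without dorsomorphin and 11.4 and 2.72 with it. Its second stimulated array was thus under the floor too, and the bound rests on the first. With dorsomorphin alone 0 of 21 passed by limma, beside 13.1% of all tested genes. At an unadjusted p under 0.05 there were 6 of 21, beside 31.4%. The list's medians were -0.02 and -0.09 for stimulation and for dorsomorphin in stimulated cells.

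Of 27 signalling adaptor and death genes 23 were tested. With stimulation 4 rose and 4 fell, and with dorsomorphin in stimulated cells 5 rose and 5 fell, or 34.8% and 43.5% of those tested beside 23.4% and 22.1% of all tested genes. Bid, which links caspase-8 to mitochondrial death, rose with stimulation (2.57 ± 0.24, adjusted p = 0.00827) and fell with dorsomorphin in both stimulated (-3.77 ± 0.24, 0.00491) and unstimulated cells (-1.501 ± 0.24, 0.0196). Nfkb2, an NF-kappaB subunit gene, rose by 1.49 and fell by 1.94 in stimulated cells, and Traf4 rose by 1.49 and fell by 1.43. Traf5, an adaptor of OX40 and CD27, fell with stimulation (-1.92) and with dorsomorphin alone (-1.66). Tnfaip3, which encodes the NF-kappaB inhibitor A20, rose with dorsomorphin in stimulated cells (2.07 ± 0.36, 0.0151), as did Birc2 (1.62 ± 0.26, 0.0122), which encodes a ubiquitin ligase recruited by TRAFs. With dorsomorphin alone 2 of 23 rose, among them Tnfaip3 (1.66), and 6 fell, among them Rbck1 (-1.86), part of the linear ubiquitin ligase. These were 34.8% of those tested, beside 13.1% of all tested genes.

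**Figure D4:**
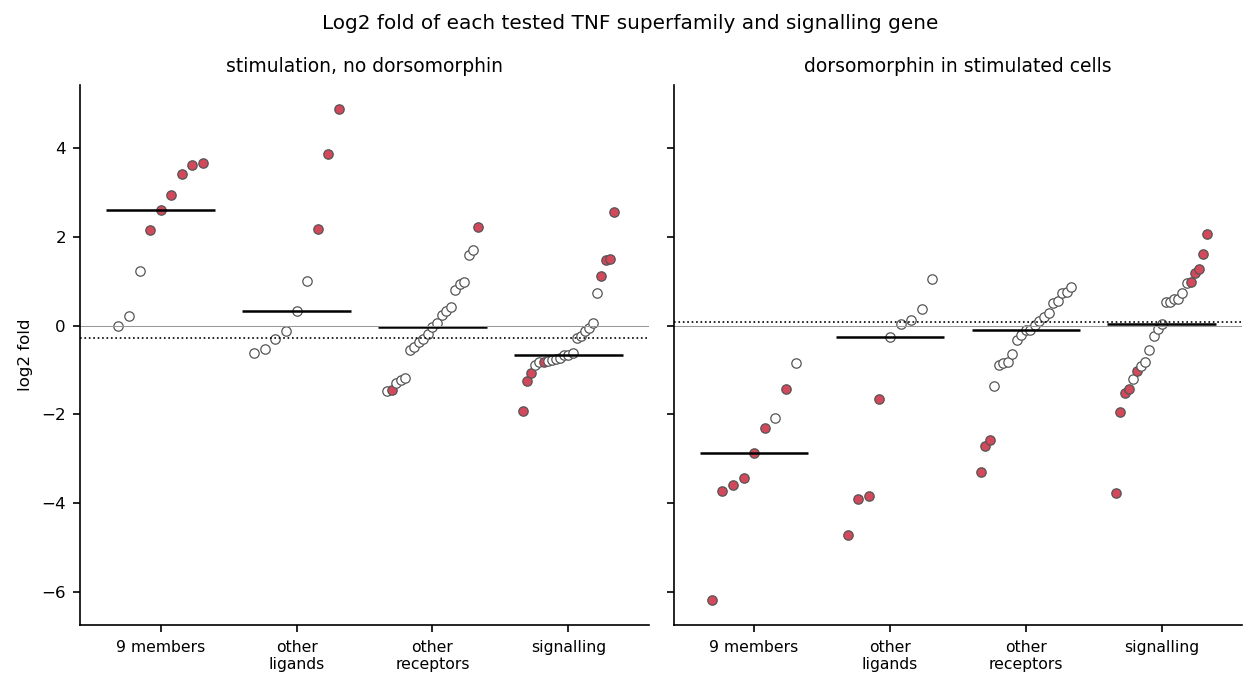
Log2 fold of each tested gene among the 9 members, the other TNF superfamily ligands (9), the other receptors (21) and the signalling genes (23). The left panel shows stimulation without dorsomorphin and the right panel dorsomorphin in stimulated cells. Filled points passed an adjusted p of 0.05, black bars are list medians, and the dotted line is the median of all tested genes. The members' medians are 2.62 and -2.86, and those of the other 3 lists lie between -0.66 and 0.34.

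Some of the 9 genes had similar patterns over the 8 arrays, given here as Pearson's r of log2 signals, a description of arrays that share 4 treatment groups. Fasl, Tnfrsf9, Tnfrsf4 and Tnfsf11 had pairwise r of 0.93 to 0.97. Such r was not particular to the family, as they ranked from 25 to 482 for each other among 13982 other tested genes. Tnfsf14 had 0.93 with Tnfsf11 and 0.83 with Tnfrsf9, and Tnfsf8 had 0.91 with Tnfrsf9. Cd27 and Tnfrsf18 had 0.86 with each other and 0.37 and 0.48 with Tnfsf8. Cd40lg had 0.09 to 0.60 with the other members.

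Among all other tested genes, by the rule given with the processing, those most like each member were as follows. For Tnfsf14 they were Maoa and Zfpm1 (r = 0.989 and 0.983), for Tnfsf11 Dhx33 and Myc (0.993 and 0.991), and for Tnfsf8 Farsa and Eea1 (0.998 and 0.992). For Fasl they were Mrps6 and Slc16a1 (0.992 and 0.991), for Tnfrsf9 Egr1 and Ccl22 (0.995 and 0.993), and for Tnfrsf4 Timm10b and Anapc15 (0.997 and 0.997). For Tnfrsf18 they were Ly75 and Ccdc88b (0.988 and 0.985), for Cd27 Ubr1 and Taf1c (0.992 and 0.990), and for Cd40lg, whose values scatter most, Trpm6 and Slc25a47 (0.952 and 0.951). For each member 13982 genes were ranked over 8 arrays.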

How the data were processed

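The deposited table holds linear intensity for 45101 probe sets on 8 arrays. The submitters' processing notes name RMA and affy, whose versions are not given in the sources used here. RMA itself returns log2 values, while the values deposited by the authors are linear, with a mean of 500 on each array after trimming 2% at either end. How they were brought to that scale is not stated. Detection calls were not used, so the floor is a working one.

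From these values log2 was taken with no further scaling. Each gene was represented by its brightest probe set of 1 symbol, control probe sets aside. Genes above the 40th percentile on at least 2 arrays entered 1 limma model over all 8 arrays (limma 3.58.1, R 4.3.3, eBayes defaults, residual df 4, prior df 1.90). The p-values, for both directions, were adjusted with the Benjamini-Hochberg method across 13983 genes, and 0.05 was the threshold. The fit was tested on simulated data. A group with both arrays under the floor gives a bound only, the brighter mean against the floor.

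The members and lists were chosen with earlier results of these data known. Named genes were the members, their partners, up to 4 called genes per list and comparison by size of fold, and the 2 genes, clone symbols aside, of highest correlation with each member. Alternatives were 3 scalings, probe set rules, filters, the floor, fewer arrays, the variance model, the replicate number as a block and leaving out each array.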

Additional observations from a re-analysis of the deposited data

Results flagged for a closer look

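For Tnfsf14 the difference between the responses to stimulation with and without dorsomorphin passed the limma test (-5.28 log2 units, adjusted p = 0.0492). Both groups with dorsomorphin lay under the working floor, so no direction of response is given there and the size of the difference is not fixed. With values raised to the floor it was -3.66 (adjusted p = 0.00545), and the call was lost in 12 of 18 alternatives. After median centring and without the filter, both among them, 0 of all tested genes passed.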

How the results depend on the processing

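Of 585 member folds under alternatives that keep every array or compare only the arrays concerned, 528 kept direction and side of the threshold, 28 passed only there, 21 were lost and 8 turned sign. Leaving out 1 array gave 380, 2, 41 and 9 of 432. No fold that turned sign was called, except that of Tnfsf14 against control, and the cause of the changes was not tested. Members called for stimulation without dorsomorphin ranged from 0 to 6 without 1 array. The same range was 6 to 7 for dorsomorphin in stimulated cells, 0 to 2 for dorsomorphin in unstimulated cells, 0 to 1 for the interaction, 0 to 1 against control and 0 to 0 for stimulation with dorsomorphin.

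For dorsomorphin in unstimulated cells, 1 member was called after median centring, without the filter or with only the arrays compared, 4 with values raised to the floor or with a trended, robust variance, and 5 with the 60th percentile filter. Over all genes 906, 927 and 883 were called in the settings with 1 member and 2992 and 3103 in those with 4. In the setting with 5 it was 2968 of 9640 tested, and in the main fit 1825. The interaction gave 0 calls after median centring, with the mean of probe sets, the second-brightest probe set or no filter, 2 after quantile normalization, 4 with the 60th percentile filter or raised values, and 6 with the trended, robust variance. Against control, 2 were called after quantile normalization, with the 60th percentile filter and with the trended variance, and 0 with the mean of probe sets, the second-brightest probe set or only the arrays compared. The last setting also gave 0 for dorsomorphin in stimulated cells. Over all genes, the interaction gave 0, 3, 1 and 0 calls in the settings with 0 members and 384 after quantile normalization. It gave 1867 of 9640 tested with the 60th percentile filter and 1709 with raised values. The trended variance called 2036 interactions in place of 12. Against control, all genes gave 1203, 2075 and 2183 calls in the settings with 2 members and 505, 685 and 0 in those with 0, beside 1010. Counts over all genes also moved when 1 array was left out.

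Sign changed for Cd27 with stimulation (0.34 after median centring, 0.0719 after cyclic loess, -0.27 to 0.25 without 1 array) and in the interaction (-0.0305 after median centring), and for Tnfrsf18 with stimulation (-0.0312 after quantile normalization). With the second-brightest probe set, Tnfsf14 had 0.26 for stimulation with dorsomorphin and 0.0518 against control, Tnfrsf9 0.37 for dorsomorphin in unstimulated cells and Fasl 0.21 against control. That probe set of Tnfsf14 was under the floor on 6 of 8 arrays, where values have no reliable order. Without 1 array, values for stimulation with dorsomorphin ran from -0.0525 to 0.34 for Tnfsf8, -0.13 to 1.17 for Fasl and -2.46 to 0.31 for Cd40lg. Against control they ran from -0.95 to 0.35 for Fasl, -0.44 to 0.81 for Tnfrsf9 and -2.22 to 0.54 for Cd40lg, and for dorsomorphin in unstimulated cells from -0.47 to 0.95 for Cd40lg.

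With the replicate number as a block, 0 members and 0 of all tested genes were called for the interaction (Tnfsf14 at adjusted p = 0.05002). Against control 2 members were called, and the member counts of the other comparisons were those without the block. Deviations of same-numbered arrays correlated at 0.0687 to 0.178 over 6 pairs of groups, and 2 numbers cannot show that they pair samples. Signals near the floor (Tnfsf14, Cd40lg, Cd70, Ngfr) are the least precise.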

Other observations

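The 2 arrays of a group differed in several TNF superfamily genes, a pattern chosen after the values were seen. In stimulated cells with dorsomorphin, replicate 2 minus replicate 1 was 2.89 log2 units for Fas, 2.33 for Tnfsf4, 1.58 for Lta, 1.29 for Fasl, 1.24 for Tnfrsf9, 1.14 for Tnf and -2.77 for Cd40lg. It was 2.56 for Il2ra, which encodes the interleukin-2 receptor alpha chain. Some of these genes differed in the same direction in other groups. With dorsomorphin alone the difference was 1.69 for Lta, 1.27 for Tnf, 0.92 for Fasl, 0.84 for Tnfsf4 and -1.42 for Cd40lg, and in stimulated cells it was 1.53 for Tnfsf4 and 0.93 for Tnf. For Fas it was 0.01 in control cells, -0.06 with dorsomorphin alone and 0.39 in stimulated cells, and for Tnfrsf9 it was -0.63, 0.24 and -0.92 in the same order. Whether the groups differ in this was not tested. Over all tested genes 19.6% differed by more than 1 log2 unit in stimulated cells with dorsomorphin, beside 13.4% in control cells, 18.0% with dorsomorphin alone and 21.0% in stimulated cells.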
